A study of Mus musculus with 8 samples.

Results

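The solute carriers of the Slc1a, Slc3a, Slc6a, Slc7a, Slc36a, Slc38a, Slc43a, Slc2a and Slc16a families move amino acids, taurine, creatine, sugars and lactate across cell membranes. They were taken from the deposited table by name, as every gene of these families with a number after the family letter, with Slc7a11 left out. The rule gave 82 of the 49782 gene names in the table. Of these 82 carriers, 37 reached 1 FPKM (fragments scaled for transcript length and for the total of the library) in 4 or more of the 8 libraries and were tested, among 9915 tested genes in all. The results cover 81 of the 82 carriers and 36 of the 37. Slc38a2, Slc38a10 and Slc43a2 were not analysed here, since the rule found no row under those names.

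Mesenchymal stem cells (MSc) of femora and tibiae came from 8 mice, 4 of each genotype, and each library stands for a separate mouse. Wildtype mice were C57Bl6/J. Has-tKO mice lacked Has1 and Has3 constitutively, and their Has2 gene was deleted in culture by a Cre recombinase that 4-hydroxytamoxifen activates. These genes encode the enzymes that make hyaluronan, a large sugar polymer of the extracellular matrix, and the study asked how its loss bears on osteogenic differentiation. Cells of both genotypes were grown for 4 passages, received 4-hydroxytamoxifen for 48 h in passages 2 and 3, and were harvested on day 7 in osteogenic medium. The sources used here do not give the promoter that drives Cre or the age and sex of the mice.

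Cells cannot make all amino acids, and their glucose enters only through carriers. Many amino acid carriers are exchangers that trade one amino acid for another. Several Slc7a light chains reach the cell surface only when bound to the heavy chain Slc3a2. In bone, glucose uptake through Slc2a1 and amino acid uptake through carriers such as Slc7a5 and Slc1a5 are known to serve the production of collagen by osteoblasts.

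Of the targeted genes, Has3 alone was found by name, with wildtype libraries at 0.378 ± 0.0995 FPKM and Has-tKO libraries at 0.503 ± 0.238 FPKM (SD, n = 4 each), too low to check a label. The columns summed to 198221 to 259871 FPKM, and the sequencing depth is unknown. Wildtype 1 stood apart, with 8327 named genes at 1 FPKM, where the other 7 libraries had 9677 to 10353. It held 61.5% of its FPKM on loci without a name, Has-tKO 4 held 56.4%, and the others 45.4% to 48.7%. Its median-ratio size factor, a scaling value from the typical gene, was 0.660 beside 0.984 to 1.14 in the other 7, so calls and counts over the carriers are given for deposited and for scaled values. FPKM levels are as deposited unless named as scaled. Over the 9915 tested genes the median of the log2 fold changes was 0.16 for deposited and -0.03 for scaled values. Of 7 named mesenchymal markers 6 were tested, among them Pdgfra (17.8 ± 3.68 FPKM in wildtype and 18.6 ± 2.398 in Has-tKO). Nt5e had a log2 fold change of -0.44 and Eng of 0.54 (limma adjusted p = 0.530 and 0.437). Lepr stayed at or below 0.822 FPKM and did not meet the filter. Summed neutrophil, lymphocyte and endothelial markers stayed at or below 3.57, 0.572 and 2.50 FPKM, with 5 of 8, 4 of 9 and none of 8 named markers at 0 throughout. In bulk RNA, fewer cells of a type and less RNA per cell cannot be told apart.

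The glucose carrier Slc2a6 rose in Has-tKO and was the only reported carrier that passed the test on deposited values. Its mean was 1.99 ± 0.555 FPKM in the wildtype libraries and 6.34 ± 1.76 FPKM in the Has-tKO libraries (SD, n = 4 each). No reported carrier fell in that test. On scaled values Slc2a6 rose again and was again the only one to pass. The 1 of 36 carriers called higher stands beside 1.58% of all tested genes called higher, and the 0 called lower beside 0.192%. After scaling, 1 carrier was called higher and 0 lower, where 1.36% and 1.29% of all tested genes were. At an unadjusted limma p under 0.05 there were 6 higher and 0 lower carriers on deposited values, beside 14.4% and 2.30% of all genes, and 3 higher and 5 lower on scaled values, beside 8.44% and 10.1%.

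For most of the 36 the libraries of both genotypes overlapped. On deposited values the Has-tKO libraries all lay above the wildtype libraries for 3 carriers (Slc2a6, Slc16a10 and Slc2a1), beside 12.0% of all tested genes, and all below for 0 carriers, beside 1.53%. After scaling 2 carriers lay above (Slc2a6 and Slc16a10), beside 5.64%, and 3 below (Slc2a8, Slc2a10 and Slc6a2), beside 7.60%. The median log2 fold change of the tested carriers was 0.31 on deposited and 0.08 on scaled values, which is 0.15 and 0.11 above that of all tested genes. A positive value was found for 25 carriers (69.4%, and 73.3% of all genes), and for 21 after scaling (58.3%, and 44.9% of all genes). Each of the 36 reached 1 FPKM in some library of both genotypes. For Slc16a6 the Has-tKO libraries met the filter by themselves (1.27 to 2.45 FPKM), and of the wildtype libraries only wildtype 3 reached 1 FPKM (1.44 FPKM). Slc16a6 is among the carriers counted higher at an unadjusted limma p under 0.05.

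**Figure D1:**
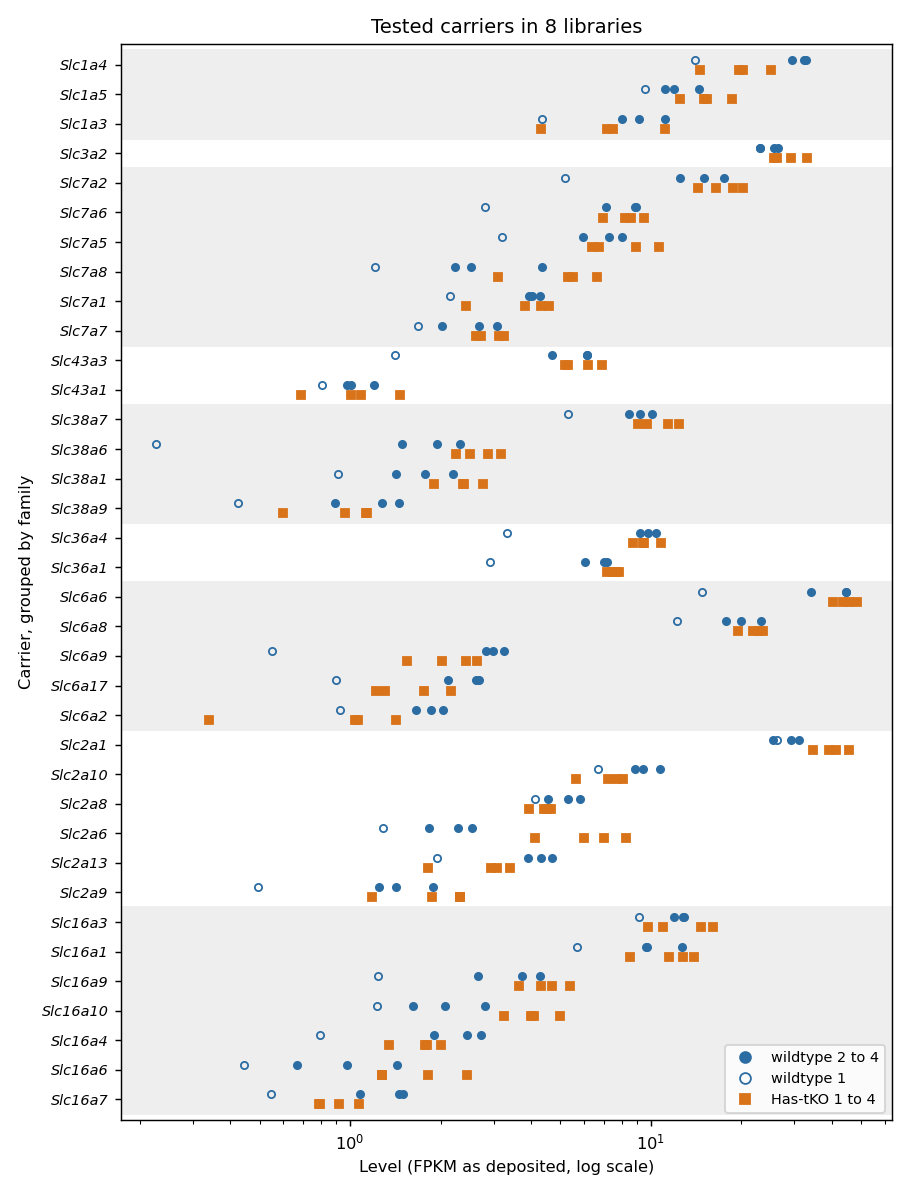
Level of each of the 36 carriers (FPKM as deposited, log scale) in the 8 libraries, grouped by family. Circles are wildtype libraries, with wildtype 1 open, and squares are Has-tKO libraries. Wildtype 1 is the lowest of the 8 for 28 of the 36 carriers, and the Slc2a6 squares (4.11 to 8.29 FPKM) all lie to the right of the circles (1.29 to 2.55 FPKM).

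The highest mean levels over all 8 libraries were those of the taurine carrier Slc6a6 (39.5 FPKM), the glucose carrier Slc2a1 (34.1 FPKM), the heavy chain Slc3a2 (26.6 FPKM), Slc1a4 (23.5 FPKM) and the creatine carrier Slc6a8 (20.1 FPKM). The range of each over the 8 libraries overlapped that of the next, and neighbours in this order were not tested against each other. FPKM corrects for transcript length, but a locus assembled from several transcripts can hold more than 1 gene. All 8 libraries were at or above 1 FPKM for 25 of the 36.

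The glucose family held the clearest difference. Slc2a6 encodes a carrier found mainly on internal membranes such as lysosomes. Its 4 wildtype libraries held 1.29, 2.55, 2.28 and 1.83 FPKM, and its Has-tKO libraries 8.29, 6.96, 4.11 and 5.98 FPKM, each in the order of replicates 1 to 4. Every Has-tKO library was above every wildtype library, and the lowest of them was Has-tKO 3. The log2 fold change was 1.28 (SE 0.21, 95% interval 0.82 to 1.74, limma adjusted p = 0.0162). After scaling it was 1.09 (SE 0.17, adjusted p = 0.0164). The adjusted p rose above 0.05 without wildtype 4 (0.0762) or without Has-tKO 1 (0.0751), with the log2 fold change at 1.26 and 1.16, and also when no filter on low values was set (0.153). On scaled values it did so without wildtype 4 (0.0727), Has-tKO 1 (0.0549) or Has-tKO 4 (0.0508).

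Macrophage markers moved with the same genotype. All 13 tested markers had a positive fold change. At an unadjusted limma p under 0.05 all 13 were higher, and 9 after scaling, beside 14.4% and 8.44% of all tested genes. Their median log2 fold change was 0.99, and 0.73 after scaling. At the adjusted threshold 2 of them rose (Cx3cr1 and Spi1, log2 fold changes 1.35 and 1.06, adjusted p = 0.0371 and 0.0458), and after scaling only Cx3cr1 passed. The summed level of the 14 named markers was 386, 389, 627 and 368 FPKM in wildtype 1 to 4 and 989, 741, 603 and 969 FPKM in Has-tKO 1 to 4, and none of the markers was at 0 throughout. Has-tKO 3 was the lowest Has-tKO library for this sum, as for Slc2a6 and Slc16a10, and wildtype 3 was above it. Single markers went both ways between wildtype 3 and Has-tKO 3, with C1qb at 229 and 180 FPKM and Spi1 at 9.54 and 13.9 FPKM. Of 5 tested smooth muscle markers 1 rose on deposited values (Tagln, 12.8 ± 1.95 to 32.0 ± 7.25 FPKM, adjusted p = 0.0136) and none after scaling (Tagln adjusted p = 0.0569). Of 9 tested chondrocyte markers 2 fell (Col9a1 and Col10a1), and 3 after scaling (Sox9 too). The median log2 fold change of the 9 was -0.78, with 0 positive, and -1.01 after scaling. At an unadjusted limma p under 0.05 there were 8 on either scale, all lower, beside 2.30% of all tested genes lower and 10.1% after scaling. None of 6 tested osteoblast markers passed on deposited values, 3 had an unadjusted limma p under 0.05, and these went both ways (Alpl -0.82, Ibsp -0.95 and Dmp1 0.62). After scaling Alpl and Ibsp fell (-1.07 and -1.21), and Dmp1 had 0.39 (adjusted p = 0.418). Of 8 tested hypoxia genes 1 fell, Car9 (adjusted p = 0.0462, and 0.0718 after scaling). None of 5 tested osteoclast markers passed on deposited values. At an unadjusted limma p under 0.05 there were 3, and these went both ways (Acp5 -1.47, Mmp9 -1.23 and Tnfrsf11a 0.70). After scaling only Acp5 passed (-1.71, adjusted p = 0.0497). The part of all these markers in the carrier results was not tested.

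Slc2a1 is the carrier that brings glucose into most cells, osteoblasts among them. Its level was 26.3, 25.5, 31.1 and 29.2 FPKM in wildtype 1 to 4 and 45.6, 34.5, 41.4 and 39.1 FPKM in Has-tKO 1 to 4. The groups did not overlap, and wildtype 1 lay within the other wildtype values. The log2 fold change of 0.50 (SE 0.15, 95% interval 0.16 to 0.84) did not pass (adjusted p = 0.118). On scaled values wildtype 1 rose to 39.9 FPKM and the groups overlapped (0.24, 95% interval -0.12 to 0.61, adjusted p = 0.460).

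Slc2a10, a carrier of internal membranes whose loss causes arterial tortuosity, was at 6.66, 10.7, 8.88 and 9.43 FPKM in wildtype 1 to 4 and at 5.65, 8.08, 7.74 and 7.19 FPKM in Has-tKO 1 to 4. Wildtype 1 fell among the Has-tKO values. Its log2 fold change was -0.27 (adjusted p = 0.462), and after scaling -0.51 with no overlap between the groups (adjusted p = 0.0625). Slc2a8, another intracellular sugar carrier, had -0.14 and -0.35 (adjusted p = 0.676 and 0.178). The proton-coupled inositol carrier Slc2a13 had -0.28 and -0.47, and the urate carrier Slc2a9 had 0.39 and 0.25, with overlap in both scales.

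**Figure D2:**
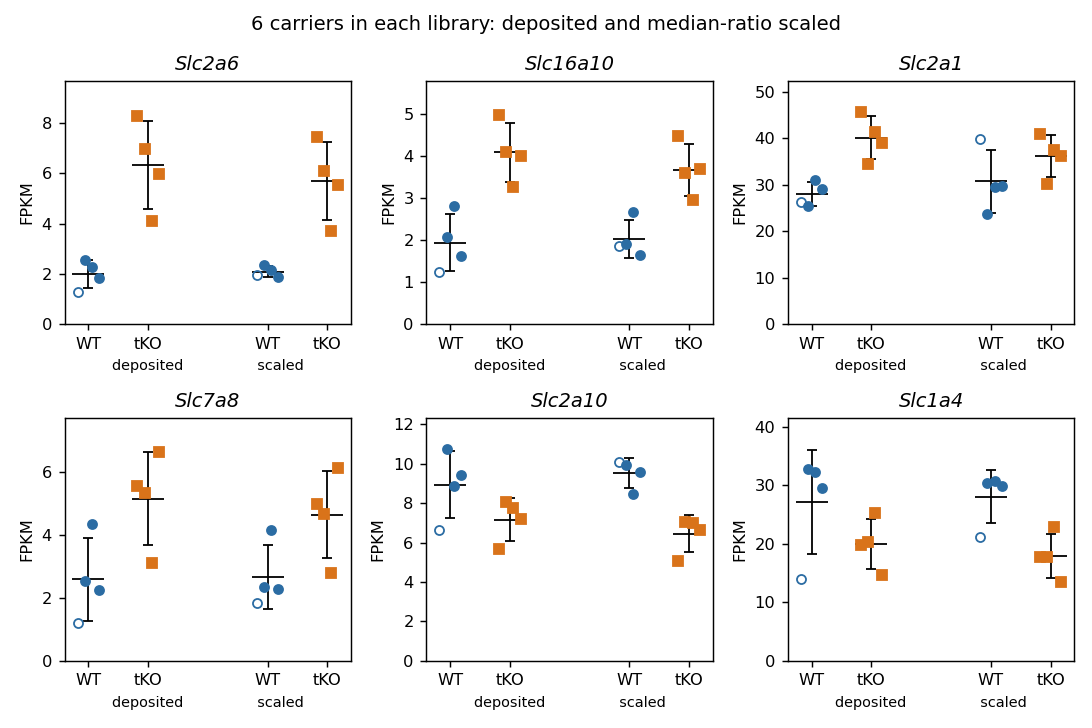
Level (FPKM) of 6 carriers in each library, as deposited on the left and median-ratio scaled on the right of each panel. Circles are wildtype (wildtype 1 open), squares Has-tKO, and the bars give the mean ± SD of 4 libraries. Slc2a6 and Slc16a10 lie apart upward on both scales, Slc2a1 on deposited values only, and Slc2a10 lies apart downward on scaled values only.

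The makeup of each family does not depend on how libraries are scaled. Slc2a1 made up 56.3 ± 5.65% of the summed FPKM of the glucose family in wildtype and 62.4 ± 3.75% in Has-tKO, with overlap. The share of Slc2a6 was 3.93 ± 0.827% and 9.85 ± 2.51%, and every Has-tKO library was above every wildtype one. The shares of Slc2a10 (17.8 ± 2.34% and 11.3 ± 2.23%) and Slc2a8 (9.87 ± 0.890% and 6.84 ± 0.306%) were lower in Has-tKO without overlap. Shares sum to 100% within a family, so a higher one lowers the rest.

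**Figure D3:**
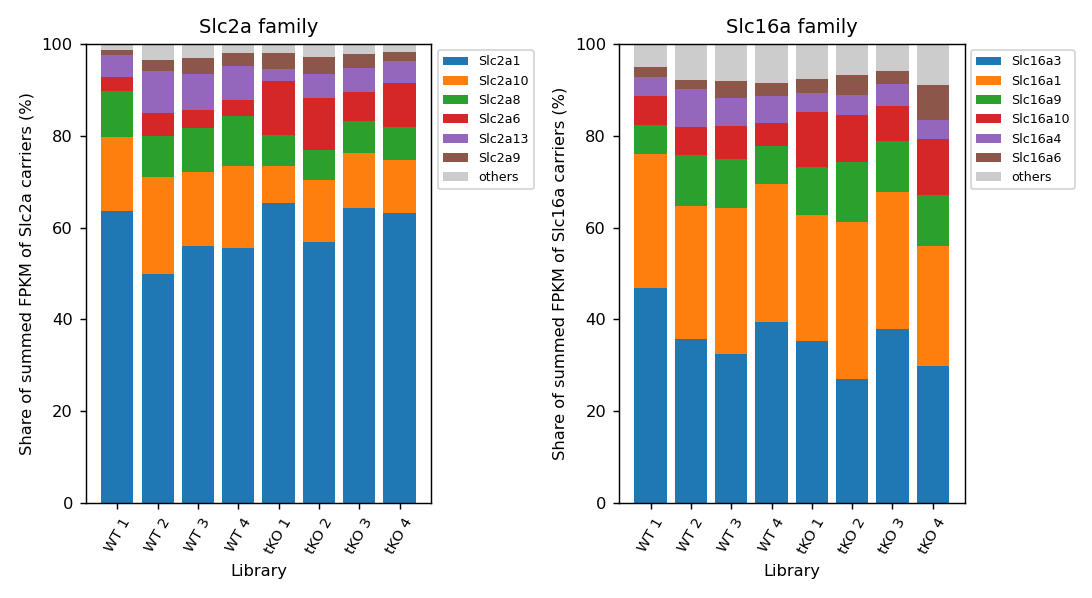
Share (%) of each carrier in the summed deposited FPKM of its family, for the glucose family (left) and the 13 reported carriers of the monocarboxylate family (right), with 1 bar per library. The share of Slc2a6 is 3.11% to 4.999% in wildtype and 6.37% to 11.9% in Has-tKO, and that of Slc16a10 is 4.985% to 7.07% and 7.65% to 12.2%.

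The Slc16a family carries lactate, ketone bodies and aromatic amino acids, among others. Slc16a10 carries aromatic amino acids such as tryptophan and tyrosine. Its libraries held 1.23, 2.06, 2.81 and 1.62 FPKM in wildtype 1 to 4 and 4.98, 4.10, 3.26 and 3.99 FPKM in Has-tKO 1 to 4. The groups did not overlap, with wildtype 3 and Has-tKO 3 the nearest to each other. The log2 fold change was 0.81 (SE 0.19) on deposited and 0.63 on scaled values, and the adjusted p was 0.0550 and 0.0515. Over the alternative settings the adjusted p ran from 0.0232 to 0.224 and the log2 fold change stayed positive. It passed without wildtype 3 (0.0232), with factors from named loci above 1 FPKM (0.0450) and with upper-quartile factors (0.0493). It did not pass in the others, among them without any of the other 7 libraries (0.0519 to 0.203), with the replicate block (0.0913) and without the filter (0.224). Among the 13 reported carriers of the family its share was 6.14 ± 0.860% of the summed FPKM in wildtype and 10.5 ± 2.11% in Has-tKO, without overlap.

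The lactate carriers differed less. Slc16a3, which exports lactate from glycolytic cells, was at 9.15, 11.9, 12.9 and 12.8 FPKM in wildtype 1 to 4 and 14.7, 11.0, 16.1 and 9.79 FPKM in Has-tKO 1 to 4. Slc16a1, which moves lactate and pyruvate both ways, was at 5.67, 9.61, 12.7 and 9.73 FPKM and 11.5, 13.9, 12.8 and 8.54 FPKM. The groups overlapped for both, with log2 fold changes of 0.12 (95% interval -0.30 to 0.54) and 0.31 (-0.19 to 0.81). After scaling that of Slc16a3 turned to -0.12 and that of Slc16a1 was 0.07. Their shares of the same 13 carriers overlapped, at 38.6 ± 6.24% and 32.5 ± 4.95% for Slc16a3, and 29.9 ± 1.38% and 29.5 ± 3.54% for Slc16a1. Slc16a9, Slc16a6, Slc16a4 and Slc16a7 overlapped too: Slc16a9 had a log2 fold change of 0.53, Slc16a6 0.53, Slc16a4 -0.07 and Slc16a7 -0.16, and after scaling 0.35, 0.40, -0.21 and -0.26. Basigin (Bsg), the partner that carries Slc16a1 and Slc16a3 to the membrane, was at 261.7 ± 43.2 FPKM in the wildtype libraries and 196 ± 10.5 FPKM in the Has-tKO libraries without overlap, and did not pass (-0.40, adjusted p = 0.226, and -0.66 with adjusted p = 0.177 after scaling).

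The promoters of the 3 carriers whose Has-tKO values all lay above wildtype on deposited values follow, as the 250 bases before the start of each gene, because these levels differed in the same direction. They come from RefSeq on the build GRCm38.p6, which is not the build of the expression table. Capitals mark matches on either strand to the hypoxia response core ACGTG, the amino acid response core TGATGNAA, the CCAAT box (those letters), the GC box GGGCGG or the TATA box TATAAA, and a match is a string of letters and no measured site. Slc2a6 is at chr2:27027999-27028248 (minus strand), Slc16a10 at chr10:40142255-40142504 (minus strand) and Slc2a1 at chr4:119108495-119108744 (plus strand).
Slc2a6: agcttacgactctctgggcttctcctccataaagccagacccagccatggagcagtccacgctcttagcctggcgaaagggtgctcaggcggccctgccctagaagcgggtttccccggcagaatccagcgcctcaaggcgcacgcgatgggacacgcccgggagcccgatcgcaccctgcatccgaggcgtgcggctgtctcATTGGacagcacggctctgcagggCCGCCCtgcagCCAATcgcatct
Slc16a10: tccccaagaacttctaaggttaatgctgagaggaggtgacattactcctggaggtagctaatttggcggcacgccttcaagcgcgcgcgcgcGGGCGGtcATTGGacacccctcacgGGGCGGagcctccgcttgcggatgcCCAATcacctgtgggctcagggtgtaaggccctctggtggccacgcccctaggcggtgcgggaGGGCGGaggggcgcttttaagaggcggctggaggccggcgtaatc
Slc2a1: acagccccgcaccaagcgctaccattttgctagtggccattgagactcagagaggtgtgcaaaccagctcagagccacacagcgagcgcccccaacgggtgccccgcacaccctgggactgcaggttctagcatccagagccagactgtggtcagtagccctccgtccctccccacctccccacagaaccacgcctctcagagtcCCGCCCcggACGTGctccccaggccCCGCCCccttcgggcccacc

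Slc2a6 and Slc16a10 each had the letters of the CCAAT box and the GC box, and Slc2a1 had those of the GC box and 1 hypoxia response core. Over all 32851 promoters of this length, the CCAAT box was found in 33.8%, the GC box in 32.7%, the hypoxia response core in 16.6%, the TATA box in 12.4% and the amino acid response core in 3.45%. Of the 26 tested carriers with a promoter in the RefSeq table, 9 had the CCAAT box, 17 the GC box, 8 the hypoxia response core, 3 the TATA box and 1 the amino acid response core (Slc7a7). The 32851 promoters were not limited to tested genes, so the 2 sets are unlike, and enrichment among carriers was not tested. The GC box was the only one of these motifs found in all 3 printed promoters.

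Among the sodium-dependent exchangers of the Slc1a family, Slc1a4, which exchanges serine, alanine and cysteine, was at 14.0, 32.7, 32.2 and 29.4 FPKM in wildtype 1 to 4 and 19.7, 20.3, 25.2 and 14.6 FPKM in Has-tKO 1 to 4. Wildtype 1 was the lowest of the 8 libraries, and the other 3 wildtype libraries were above all Has-tKO libraries. The log2 fold change was -0.38 (adjusted p = 0.496), and -0.62 after scaling (adjusted p = 0.0961). The scaled value passed without wildtype 1 (-0.75, adjusted p = 0.0379) or with both wildtype 1 and Has-tKO 4 left out (0.0392), and not without any other single library (0.0736 to 0.268). The glutamine exchanger Slc1a5 went from 11.8 ± 2.02 to 15.4 ± 2.48 FPKM (0.36, adjusted p = 0.327, and 0.12 after scaling), and the glutamate carrier Slc1a3 from 8.16 ± 2.85 to 7.53 ± 2.79 FPKM (-0.10, adjusted p = 0.881, and -0.33 after scaling).

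The heavy chain Slc3a2 was at 23.1, 26.6, 25.7 and 23.1 FPKM in wildtype 1 to 4 and 33.0, 25.7, 29.3 and 26.4 FPKM in Has-tKO 1 to 4. The ranges touched, and the log2 fold change of 0.20 (95% interval -0.13 to 0.53) turned to -0.05 after scaling (-0.39 to 0.28). Of its light chains, Slc7a5, which exchanges large neutral amino acids such as leucine, was at 6.10 ± 2.12 and 8.17 ± 1.99 FPKM (0.40, adjusted p = 0.437, and 0.18 after scaling). Slc7a8, a light chain for a wider set of neutral amino acids, was at 1.21, 2.53, 4.35 and 2.23 FPKM in wildtype 1 to 4 and 5.53, 5.32, 3.09 and 6.61 FPKM in Has-tKO 1 to 4. Only wildtype 3 and Has-tKO 3 crossed. The log2 fold change was 0.81 (SE 0.27, adjusted p = 0.143) and 0.63 after scaling (adjusted p = 0.178). It passed without wildtype 3 (1.03, adjusted p = 0.0458) and in no other alternative, where the adjusted p ran from 0.112 to 0.435.

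Slc7a6, a light chain that trades cationic for neutral amino acids, was at 2.82, 8.90, 8.84 and 7.12 FPKM in wildtype 1 to 4 and 8.19, 9.46, 8.63 and 6.91 FPKM in Has-tKO 1 to 4. Only wildtype 1 was far from the rest, and the log2 fold change was 0.32 (95% interval -0.28 to 0.92) and 0.10 after scaling. It is the only tested carrier within 10 Mb of a targeted gene, Has3. The related light chain Slc7a7 was at 2.37 ± 0.633 and 2.93 ± 0.302 FPKM (0.24, and 0.06 after scaling). The cationic amino acid carrier Slc7a2, which brings arginine into cells without a heavy chain, was at 5.18, 17.5, 15.0 and 12.5 FPKM in wildtype 1 to 4 and 16.5, 18.8, 20.3 and 14.3 FPKM in Has-tKO 1 to 4. The groups overlapped, and its log2 fold change was 0.55 (adjusted p = 0.371) and 0.31 after scaling. Its relative Slc7a1 was at 3.60 ± 0.980 and 3.78 ± 0.958 FPKM (0.06, and -0.13 after scaling).

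The Slc6a family takes up small molecules together with sodium and chloride. The taurine carrier Slc6a6 was at 14.9, 44.6, 44.5 and 34.0 FPKM in wildtype 1 to 4 and 43.4, 48.7, 40.5 and 45.7 FPKM in Has-tKO 1 to 4. The creatine carrier Slc6a8 was at 12.2, 23.3, 19.97 and 17.9 FPKM and 21.9, 23.6, 22.9 and 19.5 FPKM. For both, wildtype 1 was the lowest library, and wildtype 2 and wildtype 3 lay within the Has-tKO range. Neither carrier passed (log2 fold changes 0.47 and 0.28, adjusted p = 0.437 and 0.495, and 0.22 and 0.03 after scaling). The noradrenaline carrier Slc6a2 was at 1.62 ± 0.490 and 0.966 ± 0.451 FPKM (-0.43, adjusted p = 0.343), and after scaling its groups lay apart (-0.55, adjusted p = 0.125). The glycine carrier Slc6a9 had -0.02 and the vesicular amino acid carrier Slc6a17 -0.20, and after scaling -0.15 and -0.35.

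The Slc36a and Slc38a families include carriers of the lysosome. Slc36a4, a carrier of proline and tryptophan, was at 3.32, 10.4, 9.77 and 9.23 FPKM in wildtype 1 to 4 and 9.51, 10.8, 9.42 and 8.73 FPKM in Has-tKO 1 to 4. Slc36a1, which exports amino acids from lysosomes with protons, was at 2.93, 7.18, 6.98 and 6.05 FPKM and 7.64, 7.83, 7.43 and 7.13 FPKM. Apart from wildtype 1 these values lay close together, and the log2 fold changes were 0.30 (adjusted p = 0.601) and 0.38 (adjusted p = 0.413), and 0.08 and 0.17 after scaling. The deposited value of Slc36a4 was -0.03 without wildtype 1.

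Slc38a7, which exports glutamine and asparagine from lysosomes, was at 5.32, 9.22, 10.1 and 8.45 FPKM in wildtype 1 to 4 and 11.4, 9.68, 9.06 and 12.4 FPKM in Has-tKO 1 to 4. Slc38a6 was at 0.227, 1.94, 2.33 and 1.49 FPKM and 3.17, 2.25, 2.87 and 2.50 FPKM. Both overlapped, Slc38a6 only through wildtype 3, and the log2 fold changes were 0.35 (adjusted p = 0.395) and 0.65 (adjusted p = 0.243), and 0.12 and 0.54 after scaling. The glutamine carrier Slc38a1 had 0.40 (adjusted p = 0.300) and 0.24 after scaling, and Slc38a9, the lysosomal arginine sensor that signals to the growth kinase mTORC1, had -0.02 (95% interval -0.45 to 0.41) and -0.12 after scaling. Slc43a3, a purine nucleobase carrier, was at 1.41, 6.14, 6.13 and 4.69 FPKM and 5.30, 6.89, 6.20 and 5.21 FPKM. Slc43a1, a carrier of branched-chain amino acids, was at 0.809, 1.20, 0.977 and 1.01 FPKM and 1.01, 1.09, 1.47 and 0.689 FPKM. Neither differed beyond the spread (0.42 and 0.04, adjusted p = 0.506 and 0.930, and 0.23 and -0.09 after scaling).

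**Figure D4:**
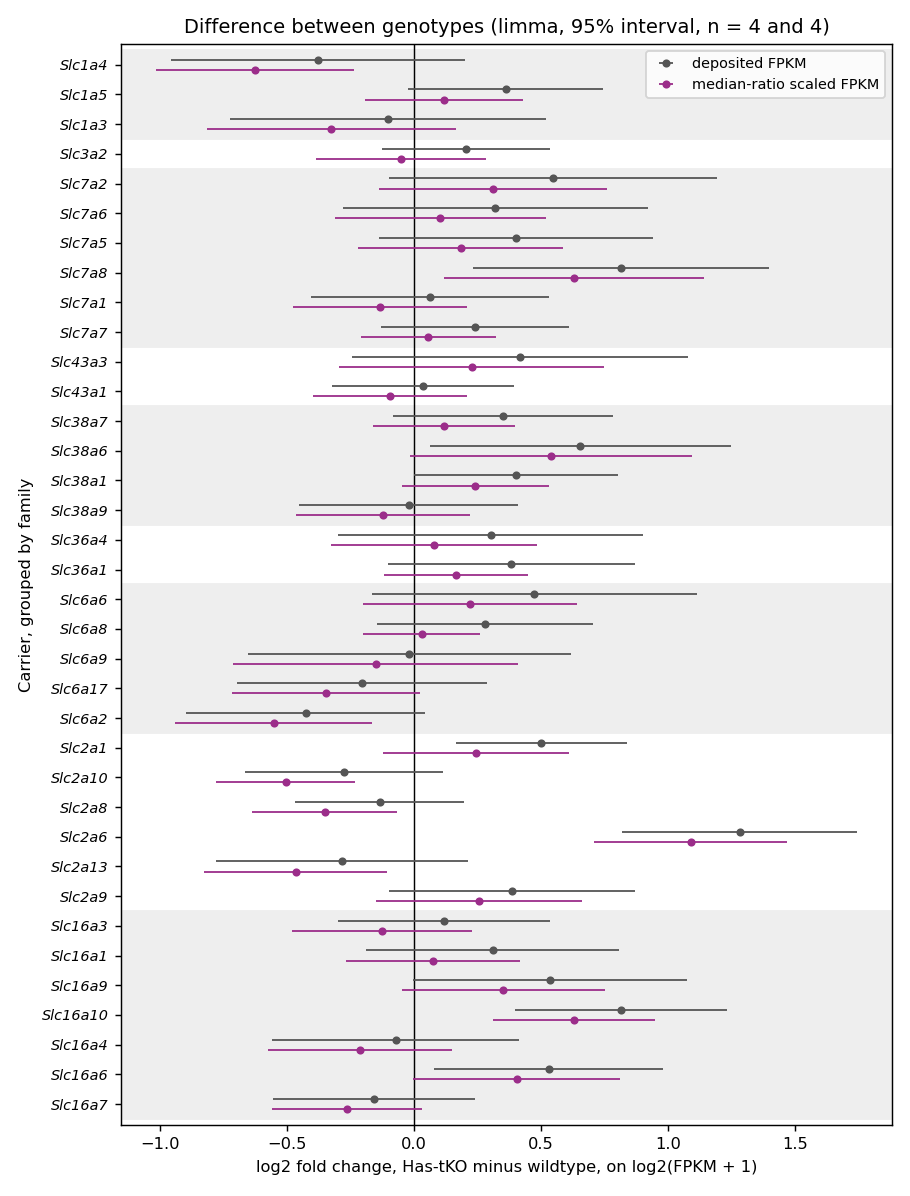
Log2 fold change (Has-tKO minus wildtype on log2(FPKM + 1)) of each of the 36 carriers with its 95% interval from limma, for deposited values (grey) and median-ratio scaled values (purple), with 4 libraries per genotype. The intervals of Slc2a6 (0.82 to 1.74 deposited), Slc16a10 (0.40 to 1.23) and Slc7a8 (0.23 to 1.40) lie above 0 on both scales. Those of Slc2a1, Slc16a6 and Slc38a6 lie above 0 on deposited values only. On scaled values only, those of Slc1a4, Slc2a8, Slc2a10, Slc2a13 and Slc6a2 lie below 0. The intervals are not adjusted for the number of genes, and scaling shifts every carrier to lower values.

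Wildtype 1 was the lowest of the 8 libraries for 28 of the 36 carriers on deposited values and for 15 after scaling. Has-tKO 4 was the lowest for 3 and 9. The ratio of wildtype 1 to the mean of wildtype 2 to 4 ran from 0.118 for Slc38a6, 0.182 for Slc6a9 and 0.249 for Slc43a3 to 0.921 for Slc3a2 and Slc2a1. Wildtype 1 thus differed from its group by an amount that 1 scaling value per library does not even out.

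**Figure D5:**
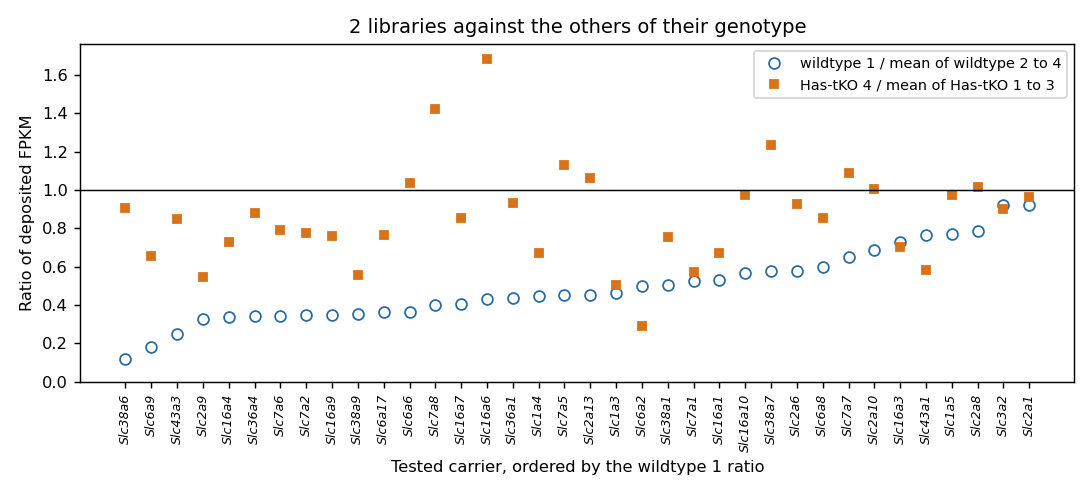
Ratio of deposited FPKM in wildtype 1 to the mean of wildtype 2 to 4 (open circles), and in Has-tKO 4 to the mean of Has-tKO 1 to 3 (squares), for each of the 36 carriers. All circles lie below 1, from 0.118 to 0.921, while the squares lie on both sides, from 0.290 (Slc6a2) to 1.68 (Slc16a6).

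The other 45 carriers did not meet the filter. Of these, 16 were listed at 0 in every library: Slc1a7, Slc2a5, Slc2a7, Slc36a3, Slc38a5, Slc38a8, Slc6a3, Slc6a5, Slc6a14, Slc6a16, Slc6a18, Slc6a21, Slc7a9, Slc7a10, Slc7a12 and Slc7a13. They include the fructose carrier Slc2a5 and the dopamine carrier Slc6a3. The other 29 were above 0 in some library, and only Slc16a13 (highest value 1.37 FPKM), Slc2a12 (1.20 FPKM) and Slc36a2 (1.20 FPKM) reached 1 FPKM in any. Just inside the filter were Slc16a7 and Slc38a9, at 1 FPKM in 4 libraries, and Slc16a6 and Slc43a1, in 5. Of the 29, 2 lay apart and higher in Has-tKO: Slc2a4, the insulin-responsive glucose carrier (0.105 to 0.199 and 0.250 to 0.800 FPKM), and Slc16a11 (0 to 0.0901 and 0.230 to 0.950 FPKM). None lay apart and lower. Of all 17255 genes below the filter, 1.92% lay apart higher and 0.701% lower.

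Families differed in how many members were found. Of the Slc7a family 6 of 14 were tested, of Slc16a 7 of the 13 reported, of Slc2a 6 of 12, of Slc6a 5 of 19, of Slc38a 4 of 9, of Slc1a 3 of 6, of Slc36a 2 of 4, of Slc43a 2 of 2 and of Slc3a 1 of 2. Without strand information, reads of overlapping genes cannot be told apart, and in the GENCODE M21 annotation this touches Slc6a9 (Ccdc24 and B4galt2), Slc7a5 (Gm20388), Slc7a7 (Oxa1l) and Slc16a6 (Amz2 and Arsg).

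Lists of genes that act with the carriers were read beside them. Over all tested genes 1.58% were called higher and 0.192% lower on deposited values. An unadjusted limma p under 0.05 was found for 14.4% higher and 2.30% lower. Of 29 tested targets of the amino acid response, the transcription program of Atf4 that follows amino acid shortage, none rose and 1 fell, the lipoprotein receptor Vldlr (8.17 ± 1.48 to 3.48 ± 0.624 FPKM, log2 fold change -1.03, adjusted p = 0.0181). Atf4 itself was at 23.8 ± 3.11 and 28.0 ± 2.06 FPKM (0.23, adjusted p = 0.472, and -0.02 after scaling). Of 26 tested genes of amino acid sensing and mTORC1 none passed, and 1 had an unadjusted limma p under 0.05 (Rragc, 0.72, adjusted p = 0.263). Of 18 tested partners and traffic factors of carriers none passed, and 2 had such a p (Bsg and the Rab regulator Tbc1d1, 0.58, adjusted p = 0.130). Among the 29 amino acid response targets 3 had such a p. After scaling the counts were 8 of 29, 3 of 26 and 3 of 18, beside 8.44% of all tested genes higher and 10.1% lower.

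Of 23 tested genes of glycolysis and lactate, 1 rose and none fell, beside 1.58% and 0.192% of all tested genes. After scaling 0 passed. The median log2 fold change of the list was 0.02, and -0.24 after scaling, beside 0.16 and -0.03 over all tested genes. An unadjusted limma p under 0.05 was found for 3, and for 9 after scaling. The gene that rose was the hexokinase Hk2, which phosphorylates glucose once it has entered the cell. Its level was 3.36, 4.17, 4.32 and 4.11 FPKM in wildtype 1 to 4 and 9.07, 7.06, 7.69 and 5.76 FPKM in Has-tKO 1 to 4. Its groups did not overlap (0.74, adjusted p = 0.0478), and it did not pass after scaling (0.52, adjusted p = 0.0821). Hk3, a hexokinase prominent in myeloid cells, was at 9.04 ± 2.38 and 16.9 ± 3.92 FPKM (0.84, adjusted p = 0.0716, and 0.59 with adjusted p = 0.267 after scaling). Hk1 was at 7.67 ± 1.62 and 8.11 ± 2.00 FPKM (0.06, and -0.17 after scaling). Lactate dehydrogenase Ldha was at 151 ± 13.5 and 149 ± 15.6 FPKM (-0.02, and -0.28 after scaling).

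Of 22 tested genes of amino acid, creatine and taurine metabolism, 1 rose and none fell, beside 1.58% and 0.192% of all tested genes. An unadjusted limma p under 0.05 was found for 7 of them, and for 8 after scaling. Ass1, which makes argininosuccinate on the way from citrulline to arginine, was at 4.21, 7.13, 5.58 and 5.16 FPKM in wildtype 1 to 4 and 16.0, 15.5, 15.1 and 11.0 FPKM in Has-tKO 1 to 4. The lowest Has-tKO library was above the highest wildtype library (1.24, adjusted p = 0.0127, and 1.01 with adjusted p = 0.0107 after scaling). Cdo1, which starts the making of taurine from cysteine, was at 13.3, 27.7, 21.0 and 20.03 FPKM and 6.37, 11.6, 9.82 and 12.0 FPKM without overlap. It did not pass on deposited values (-0.97, adjusted p = 0.0636) and passed after scaling (-1.21, adjusted p = 0.0153). Over the 5 lists 3 genes passed, and this count was 0 without wildtype 4 or without Has-tKO 1, 1 without Has-tKO 4 and 5 without wildtype 1. After scaling the count was also 3 (Vldlr, Ass1 and Cdo1).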

How the data were processed

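RNA was sequenced from 8 mice, 4 per genotype, after ribosomal RNA depletion and Nextera tagmentation, per the labels' protocols. The authors deposited FPKM values for 76557 loci. The builds GRCm39 and hg38 and the tools DESeq2, StringTie, HISAT2, fastp and bcl2fastq are named per the submitters' processing notes, with versions, options and the role of hg38 not given in the sources used here. Low values did not step in whole reads, so depth and counting error are unknown. Columns were assigned by header name.

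Genes that reached 1 FPKM in 4 or more libraries were fitted as log2(FPKM + 1) with limma 3.58.1 (empirical Bayes with a trend, R 4.3.3), two-sided, without rescaling, with Benjamini-Hochberg adjustment over all 9915 and a threshold of 0.05. The fold change understates differences of genes near 1 FPKM. The same fit was run after median-ratio scaling over the 19489 loci above 0 in every library, and the code was tested on simulated data. Over all tested genes 176 passed (157 higher) on deposited and 263 (135 higher) on scaled values.

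Values in every library are given for carriers that passed in either fit and for the 2 tested carriers with the highest mean of each family, with Slc3a2 joined to Slc1a. Slc16a10, Slc7a8, Slc2a4, Slc16a11 and list genes other than the first 3 by p were chosen after their values were seen. Of the carriers found by the rule, 1 that was tested is not reported here and is left out of the counts over carriers. Members and lists were chosen with earlier results of these data known. Gene neighbourhood came from GENCODE M21 (GRCm38). Alternatives were other scalings, pseudocounts of 0.1, other filters, a replicate block and leaving out libraries.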

Additional observations from a re-analysis of the deposited data

Results flagged for a closer look

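Slc36a4 was listed at 3.32 FPKM in wildtype 1, far from the other 3 wildtype libraries (9.23 to 10.4 FPKM). The gap to the nearest library was larger than Dixon's limit for 4 values. It was the only such value among 38 groups looked at. By chance about 1 in 20 independent groups would hold such a value, and 1 among 38 is not above that rate. The groups share the same 8 libraries, and wildtype 1 was the lowest for 28 of the 36 carriers. They are thus not independent, and the comparison with that rate cannot decide whether this value is a chance one. These groups did not cover every tested carrier. Slc6a9, at 0.550 FPKM in wildtype 1 and 2.84 to 3.24 FPKM in the other wildtype libraries, was not among them.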

How the results depend on the processing

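Depth is unknown, each genotype has 4 libraries, and p-values measure the spread between these mice. The count of carriers called (1) and called higher (1) became 2 with upper-quartile factors and with factors from named loci above 1 FPKM (added after seeing the data) and 0 without the filter. It stayed at 1 with median-ratio factors, the pseudocount of 0.1, the filter on the mean, and both wildtype 1 and Has-tKO 4 left out. Leaving out 1 library gave 0 to 3 called, all of them higher. Carriers whose groups did not overlap (3) were 5 with median-ratio and with upper-quartile factors. The carriers' median relative to all genes (0.147) was -0.00396 without the filter, 0.0472 with both libraries left out, and 0.0667 to 0.193 with 1 left out. Pathway genes called (3) were 0 without the filter, 6 with both left out and 0 to 5 with 1 left out. The replicate block left Slc2a6 as the 1 carrier called. With median-ratio factors the replicate block called 0, with 0 higher (Slc2a6 adjusted p = 0.0669). Same-numbered libraries correlated at -0.105, 0.323, -0.125 and -0.0837 and matched their own number best only for replicate 2. The main fit therefore did not pair them by number. With 4 libraries per genotype these values cannot decide whether same-numbered libraries were handled together. On scaled values 1 carrier was called, and 0 to 2 when 1 library was left out, with 0 to 2 higher and 0 to 1 lower. With both libraries left out there were 2 called, 1 of them lower (Slc1a4, adjusted p = 0.0392), a median of 0.0418 and 5 pathway genes, which were 1 to 5 with 1 left out. Signs turned, none past the threshold, for Slc3a2 (-0.0509 median-ratio, also with the replicate block, and -0.0283 upper-quartile), Slc43a1 (-0.0948 median-ratio and block, -0.0834 upper-quartile, -0.0669 named-loci, and -0.0546 to 0.127 with 1 library left out), Slc16a3 (-0.125 median-ratio and block, -0.103 upper-quartile, -0.0718 named-loci) and Slc36a4 (-0.0274 to 0.439 with 1 left out). On scaled values signs turned with both libraries left out for Slc3a2 (0.101), Slc7a6 (-0.0255), Slc36a4 (-0.0887), Slc43a1 (0.0214) and Slc16a3 (0.0218). With 1 left out the scaled values ran from -0.118 to 0.0785 for Slc3a2, -0.0881 to 0.191 for Slc7a6, -0.117 to 0.155 for Slc36a4 and -0.0314 to 0.344 for Slc43a3. The cause was not tested.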

Other observations

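Within the Slc1a family, Slc1a4 held 56.0 ± 4.91% of the summed FPKM in wildtype and 46.0 ± 3.64% in Has-tKO (SD, n = 4 each). The share of Slc1a5 was 25.8 ± 5.49% and 36.0 ± 5.68%. The groups overlapped for both, Slc1a4 through wildtype 1 (49.4%) and Has-tKO 1 (49.5%). The summed FPKM of the 81 carriers ran from 175 to 331 in wildtype and from 306 to 349 in Has-tKO.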
